A study of Homo sapiens with 12 samples.

Results

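Human genes differ greatly in the length of DNA that RNA polymerase II must cross to make 1 transcript. Very long genes were taken here as protein-coding genes on the autosomes whose span in the GENCODE 29 annotation of GRCh38 (end minus start) is 300 kb or more. The rule reads the annotation and not the comparisons made here. The gene count file held 775 such genes, and 455 of them had more than 1 CPM in 3 or more libraries and could be tested. The file listed 60671 genes in all, of which 13236 passed the same minimum, among them 11472 autosomal protein-coding genes. The remaining 11017 of these, with a shorter span, served for comparison. Messenger RNA was sequenced from BJ-5ta cells, a line of human fibroblasts immortalised with telomerase. Wild-type cells and ΔLEO1 cells, in which LEO1 had been disrupted by CRISPR/Cas9 at its first exons, were each grown in 10% serum or kept in 0.1% serum for 10 days. The groups were wild type in 10% serum (libraries 1 to 3), ΔLEO1 in 10% serum (libraries 4 to 6), wild type in 0.1% serum (libraries 7 to 9) and ΔLEO1 in 0.1% serum (libraries 10 to 12). Only clone 13 of the ΔLEO1 cells was sequenced, so that properties of this clone and the loss of LEO1 cannot be told apart. Neither the labels nor the methods say whether the 3 libraries of a group were separate cultures, and p-values therefore measure the spread between these libraries, which may be technical.

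LEO1 is a subunit of the PAF1 complex, which travels with RNA polymerase II and takes part in transcription elongation and in the histone modifications laid down along transcribed genes. In a very long gene nearly all of the span is intron, and the polymerase needs hours to reach the end. Many very long genes encode cell surface, synaptic and cytoskeletal proteins, and fibroblasts express a large number of them. The comparison of ΔLEO1 with wild-type cells asks whether loss of an elongation factor shifts the RNA of very long genes, and the comparison of 0.1% with 10% serum asks the same of serum withdrawal.

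The start regions of 4 members are printed here because these genes had some of the widest differences between the genotypes. SLIT3 and SGCD were lower and PCDH9 and LUZP2 were higher in ΔLEO1 cells at both serum levels. The sequences come from RefSeq on GRCh38.p14 and run from 250 bases before to 50 bases after an annotated start, in the direction of transcription. Capitals mark the GC box GGGCGG on either strand. The window of SLIT3 lies at chr5:169301090-169301389 on the minus strand, that of SGCD at chr5:156326914-156327213 on the plus strand, that of PCDH9 at chr13:67230287-67230586 on the minus strand and that of LUZP2 at chr11:24496803-24497102 on the plus strand. The SGCD window belongs to an internal start, 457 kb downstream of the first base of the gene in GENCODE.
SLIT3: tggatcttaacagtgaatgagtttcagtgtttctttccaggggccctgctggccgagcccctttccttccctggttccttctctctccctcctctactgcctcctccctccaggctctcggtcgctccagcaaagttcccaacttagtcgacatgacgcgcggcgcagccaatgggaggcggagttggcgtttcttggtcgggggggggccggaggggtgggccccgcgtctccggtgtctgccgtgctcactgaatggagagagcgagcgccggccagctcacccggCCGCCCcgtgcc
SGCD: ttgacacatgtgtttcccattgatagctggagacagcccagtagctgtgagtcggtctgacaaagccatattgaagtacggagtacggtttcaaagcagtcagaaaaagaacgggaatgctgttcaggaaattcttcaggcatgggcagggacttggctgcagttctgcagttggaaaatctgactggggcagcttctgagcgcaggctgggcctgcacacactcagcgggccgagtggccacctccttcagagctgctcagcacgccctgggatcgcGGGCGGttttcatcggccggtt
PCDH9: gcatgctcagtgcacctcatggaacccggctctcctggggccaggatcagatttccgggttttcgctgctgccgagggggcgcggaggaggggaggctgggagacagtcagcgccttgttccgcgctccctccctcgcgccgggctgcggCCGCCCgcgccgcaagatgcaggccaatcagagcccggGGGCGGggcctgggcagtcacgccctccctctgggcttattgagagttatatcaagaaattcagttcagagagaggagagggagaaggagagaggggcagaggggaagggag
LUZP2: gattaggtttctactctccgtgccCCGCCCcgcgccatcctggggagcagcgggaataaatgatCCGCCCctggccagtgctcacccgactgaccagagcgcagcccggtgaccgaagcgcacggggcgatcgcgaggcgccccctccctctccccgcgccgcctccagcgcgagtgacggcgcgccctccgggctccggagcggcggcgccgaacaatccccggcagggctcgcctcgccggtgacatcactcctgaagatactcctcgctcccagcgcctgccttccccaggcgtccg
The GC content of these windows was 64.7%, 55.3%, 65.7% and 71.7% in this order. SLIT3 and SGCD held 1 GC box each and PCDH9 and LUZP2 held 2 each. RefSeq windows were at hand for 376 of the 455 members, 757 windows in all. A GC box was present in 47.6% of the members' windows and in 45% of all 35116 windows. The CCAAT motif on either strand was found in 31.7% of the members' windows against 34.6% of all, and the TATA box TATAAA in 8.32% against 11.5%. Of the 70 windows of members lower in ΔLEO1 cells at both serum levels 38.6% held a GC box, and of the 39 windows of members higher at both levels 51.3% did. These matches describe letters in a window and are not evidence of a bound factor.

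The values named ERCC-scaled are read counts of a gene per 1000000 effective counts of the ERCC RNAs in the same library. These synthetic RNAs were mixed into every sample at the same dilution, so that this scale keeps changes shared by all genes. The methods do not say whether their amount was matched to cells or to RNA mass. A difference in RNA input would also appear as a shared change. Genes received 26240632 to 45315560 counts in a library, and ERCC RNAs received 244023 to 1090393. LEO1 itself had ERCC-scaled counts of 2942, 2507 and 1621 in wild-type and 216, 92.6 and 131 in ΔLEO1 cells in 10% serum. In 0.1% serum it had 1392, 1837 and 759 in wild-type and 34.8, 43.3 and 126 in ΔLEO1 cells. The groups did not overlap, and the difference in 10% serum was −4.02 ± 0.49 (SE), adjusted p = 2.16e-11 on the log2 scale, and in 0.1% serum −4.32 ± 0.50 (SE), adjusted p = 1.43e-12. All 12 fibroblast markers were above 10 CPM in every library. Of the markers of other cell types, all 3 of melanocytes, 4 of 5 of endothelium, 3 of 4 of glia, 3 of 5 of leukocytes and 2 of 5 of neurons stayed under 1 CPM in every library. Summed epithelial markers, carried by KRT8 and KRT18, ranged from 167 to 463 CPM in wild-type and from 510 to 1141 CPM in ΔLEO1 libraries, and smooth muscle markers from 137 to 897 and from 575 to 2819 CPM. Their part in the results was not tested. ERCC RNAs took 1.09% of the counts in library 12 and 1.88% and 3.24% in libraries 10 and 11 of the same group, and results that rest on it are given also without the highest-numbered library of each group (3, 6, 9 and 12).

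The 455 members had a median span of 437 kb, against 32.4 kb in shorter genes, and most of this was intron. The longest intron of the longest transcript had a median of 122 kb in members and 8.07 kb in shorter genes. Their mature transcripts were longer as well. The union of exons had a median of 10183 bases in members and 5166 in shorter genes, and the longest transcript had a median of 16 against 8 exons. Exon GC content was lower, 44.1% against 48.2%. The median of the mean level was nearly alike, 23.3 CPM in members and 26.5 CPM in shorter genes. The members just above the limit of 300 kb were SYT16, MGMT and KMT2C with 301 kb each, and the genes just below it were ARMH4, GHR and BAZ2B with 298 kb each. Of the 320 very long genes that were not tested, 73 had no count in any library. The share of genes that passed the minimum was 58.7% of very long and 60.5% of shorter genes. Among the members, 356 exceeded 1 CPM in all 12 libraries, while 32 exceeded it in wild-type libraries only and 17 in ΔLEO1 libraries only. Those 49 entered through the group in which they were high.

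In ΔLEO1 cells in 10% serum, very long genes were low relative to other genes. Their median log2 fold change against wild type was 0.02, while that of all tested genes was 0.35 and that of shorter genes weighted to the same deciles of expression was 0.34. Members thus lay 0.32 below shorter genes of like expression on the log2 scale. With shorter genes weighted by expression and exon length the shift was −0.27, and by expression and GC content −0.35. Beyond 30 kb the median fell with span. The median log2 fold change was 0.38 under 10 kb, 0.42 from 10 to 30 kb, 0.36 from 30 to 100 kb and 0.24 from 100 to 300 kb. It was 0.09 in the 286 members of 300 to 500 kb, −0.05 in the 142 members of 500 kb to 1 Mb and −0.52 in the 27 members of 1 Mb or more. Of these 27, 21 had a negative value, as had 225 of the 455 members and 3425 of all 13236 tested genes. The spread widened at the same time, with quartiles of −2.08 and −0.14 in the longest class against 0.06 and 0.66 under 10 kb.

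**Figure D1:**
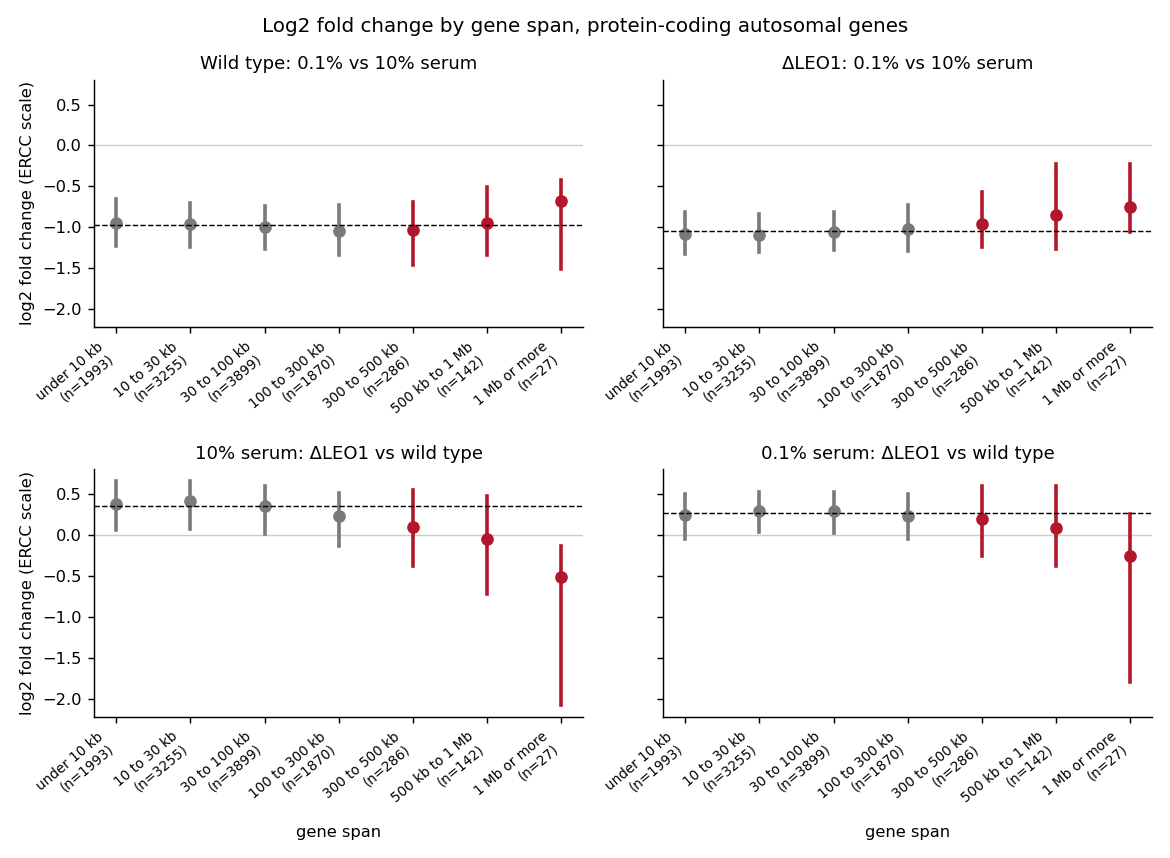
Median log2 fold change on the ERCC scale (points, with bars from the lower to the upper quartile) by class of gene span, for 4 comparisons of 3 against 3 libraries. Red marks the very long genes, grey the shorter protein-coding genes and the dashed line the median of all 13236 tested genes. In 10% serum the ΔLEO1 against wild-type medians fall from 0.38 in the shortest to −0.52 in the longest class, while in both serum comparisons the longest class lies above the dashed line.

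In 0.1% serum the members lay closer to other genes, although the difference between the sera was not tested over the members. Their median was 0.16 against 0.27 for all genes, which put them 0.10 below shorter genes of like expression. The 27 longest members again had the lowest median, −0.26, with 0.08 from 500 kb to 1 Mb and 0.19 from 300 to 500 kb. Leaving out the highest-numbered library of each group lowered the median of all genes in this comparison to −0.42 and moved the members' shift to −0.28. In 10% serum the shift was −0.34 without those libraries. Scaling by TMM on the genes themselves, which sets the median change of all genes near 0, gave −0.32 in 10% and −0.17 in 0.1% serum. With serum withdrawal the members' median was −0.99 in wild-type cells, where all genes had −0.97, and −0.90 in ΔLEO1 cells, where all genes had −1.05. The shifts against shorter genes of like expression were −0.02 and 0.16, and the latter was 0.053 without the highest-numbered libraries. In bulk RNA a lower ERCC-scaled count cannot be divided into fewer cells of a type, less RNA per cell and less RNA taken into the library.

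The same comparison was made within each library, as the median deviation of members from their own mean over the 12 libraries less that of shorter genes of like expression. It was 0.13, 0.13 and 0.08 in wild-type libraries 1 to 3 and −0.18, −0.19 and −0.15 in ΔLEO1 libraries 4 to 6, all in 10% serum. The groups did not overlap, with means of 0.12 ± 0.03 and −0.18 ± 0.02 (SD, n = 3 libraries each). In 0.1% serum the values were 0.15, 0.05 and 0.06 in wild-type libraries 7 to 9 and −0.11, −0.15 and 0.11 in ΔLEO1 libraries 10 to 12. Library 12 lay within the range of the wild-type libraries, so that these groups overlapped.

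**Figure D2:**
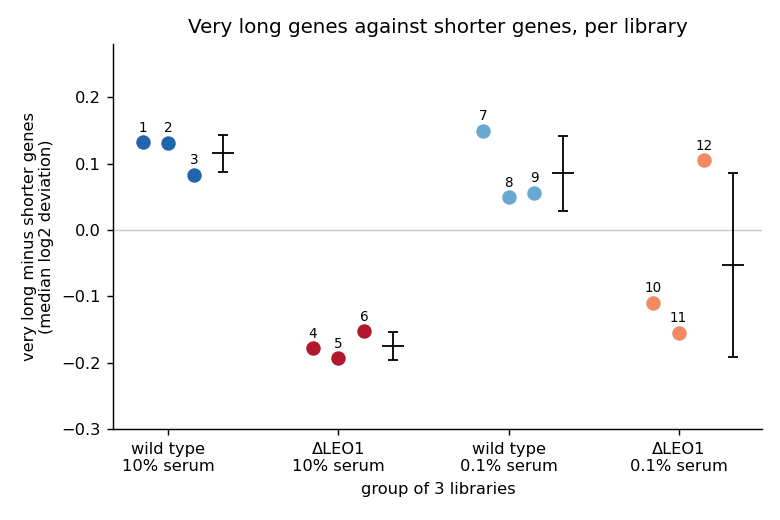
Median log2 deviation of the 455 very long genes minus that of shorter genes of like expression in each library, by group, with the library number at each point and the mean ± SD of 3 libraries beside it. In 10% serum the wild-type libraries lie between 0.08 and 0.13 and the ΔLEO1 libraries between −0.19 and −0.15, and in 0.1% serum ΔLEO1 library 12 lies at 0.11 with the wild-type libraries.

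The lower position of members in ΔLEO1 cells was spread over the genome. In 10% serum the members' median lay below that of shorter genes on the same chromosome on 20 of 22 autosomes, and on 17 of the 18 with 10 or more members. Chromosome 13, with PCDH9 and DACH1 among its 15 members, was the exception among these 18, at 0.68 for members and 0.38 for shorter genes. In 0.1% serum the count was 17 of 22, and 15 of 18. It was found at all levels of expression in 10% serum. Split into tertiles by mean CPM, which is not divided by length, members lay at −0.39, −0.25 and −0.37 relative to shorter genes of the lowest, middle and highest tertile. In 0.1% serum they lay at −0.16, 0.04 and −0.20. Across all 11472 autosomal protein-coding genes, Spearman's rho between span and log2 fold change was −0.13 in 10% and −0.01 in 0.1% serum, and within the 455 members it was −0.13 and −0.09. These correlations are across genes measured in the same libraries, which are not independent of each other.

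Single members were tested with edgeR's likelihood ratio test over all 13236 genes, and a gene with a Benjamini-Hochberg adjusted p under 0.05 is said to be called. In 10% serum 39 members were called higher and 60 lower in ΔLEO1 cells against wild type, that is 8.57% and 13.2% of them, where 4.2% of all genes were called higher and 4.64% lower. In 0.1% serum 42 members were called higher (9.23%) and 57 lower (12.5%), beside 3.85% and 3.59% of all genes. These 4 shares lay above the background on the ERCC scale. In the lowest tertile of expression 43.4% of members were called in 10% serum against 21% of shorter genes, and in the highest tertile 5.26% against 2.76%. Under TMM on the genes the calls were 72 higher (15.8%) and 196 lower (43.1%) in 10% serum, beside 17.7% and 21.8% of all genes, so that the share of higher calls fell below the background. In 0.1% serum they were 82 higher (18%) and 148 lower (32.5%), beside 15.4% and 17.6%. Without the highest-numbered libraries 50 were higher and 90 lower in 10% serum, beside 7.3% and 7.24% of all genes, and 30 were higher and 162 lower in 0.1% serum, beside 2.86% and 16.6%. The counts of the genotypes did not overlap in 92 members (20.2%) on the higher and 73 (16%) on the lower side in 10% serum, beside 23.7% and 6.94% of all genes, and in 41 and 56 members in 0.1% serum, beside 4.64% and 4.83%. The calls of 67 of the 99 members in 10% serum and of 64 of the 99 in 0.1% serum held whichever single library was left out. The counts above include the 49 members over 1 CPM in 1 genotype only that passed the filter through the genotype in which they were high. Without such genes, a choice made after the data were seen, 24 of 406 members were higher and 34 lower in 10% serum (5.91% and 8.37%, beside 2.97% and 2.97% of all genes left). In 0.1% serum 27 were higher and 28 lower (6.65% and 6.9%, beside 2.68% and 1.88%). The shifts against shorter genes were then −0.32 and −0.09. Among the 49, CSMD1, THSD7A, LSAMP, CDH18, ADAMTSL1, COL21A1, ROR2, KCNS3 and MSR1 were over 1 CPM in wild-type libraries only. PCDH9, PCDH7, FAT3, SGCZ, MGAT4C and LUZP2 were over it in ΔLEO1 libraries only. The filter favoured the direction of the difference in these genes, which their adjusted p-values and ratios do not account for.

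The 2 comparisons of the genotypes share no library. Of the 60 members lower in 10% serum 43 were also lower in 0.1% serum (71.7%, and 75.4% of the 57 lower there), and of the 39 higher ones 27 were also higher (69.2%, and 64.3% of 42). Of all genes lower in 10% serum 63% were also lower in 0.1% serum, and of all genes higher 66.5% were also higher. Of all 13236 tested genes 2.92% were lower and 2.8% higher in both. These counts include members over 1 CPM in 1 genotype only (49 of the 455), whose direction the filter favoured. The agreement was not computed without them. TENM4, a teneurin of the cell surface, was the only member called in opposite directions. It had 10.4, 5.36 and 0 in wild-type and 24.5, 38.6 and 16.6 in ΔLEO1 cells in 10% serum, where it was called higher (2.54 ± 0.85 (SE), adjusted p = 0.018) but not without library 2, 3 or 5 (adjusted p up to 0.283). In 0.1% serum it had 782, 844 and 193 against 129, 74.6 and 234 and was called lower (−2.07 ± 0.51 (SE), adjusted p = 0.00218).

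**Figure D3:**
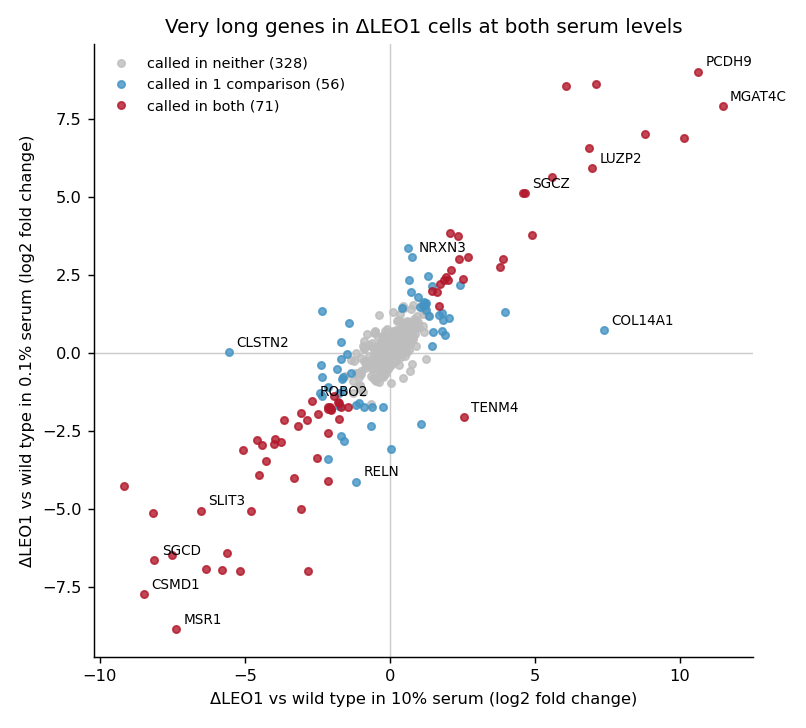
Log2 fold change of each of the 455 very long genes in ΔLEO1 cells against wild type, in 10% serum (horizontal axis) and in 0.1% serum (vertical axis), coloured by whether it was called in neither comparison (328 genes), in 1 (56) or in both (71). Most called genes lie along the diagonal, with MSR1 and CSMD1 at its lower end and PCDH9 and MGAT4C at its upper end, and TENM4 lies off it. Positions of genes without counts in a group, such as MGAT4C, depend on the prior count of the fit.

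Of the members, 254 fell into at least 1 of 8 lists by the role of their product. Counts of calls in a list are to be read beside the shares already given. In ΔLEO1 cells in 10% serum 13.2% of all members were lower and 8.57% higher, beside 4.64% and 4.2% of all genes. In 0.1% serum the shares were 12.5% and 9.23% of all members, beside 3.59% and 3.85% of all genes. Genes of cell surface adhesion and axon guidance gave calls in both directions between the genotypes. Of 31 tested, 8 were lower and 7 higher in ΔLEO1 cells in 10% serum (25.8% and 22.6%), and 8 were lower and 8 higher in 0.1% serum (25.8% each). The median of the list was −0.36 in 10% and −0.14 in 0.1% serum, beside 0.35 and 0.27 for all genes. SLIT3 (ENSG00000184347; chromosome 5, 168661733 to 169301129; 639 kb), a secreted guidance ligand, had ERCC-scaled counts of 6261, 4853 and 663 in wild-type and 57.1, 48.9 and 23.7 in ΔLEO1 cells in 10% serum. Library 3 was low among the wild-type libraries but lay well above each ΔLEO1 library. SLIT3 was thus lower in ΔLEO1 cells, by −6.52 ± 0.50 (SE), adjusted p = 5.68e-25 on the log2 scale. In 0.1% serum SLIT3 had 12799, 13534 and 12002 in wild-type and 298, 143 and 707 in ΔLEO1 cells, again without overlap (−5.07 ± 0.46 (SE), adjusted p = 2.1e-18). ROBO2 (ENSG00000185008; chromosome 3, 75906695 to 77649964; 1743 kb) encodes a receptor of SLIT proteins. Its counts were 10748, 9240.2 and 4844 in wild-type and 1688, 1283 and 933 in ΔLEO1 cells in 10% serum, a difference of −2.67 ± 0.45 (SE), adjusted p = 1.05e-06. In 0.1% serum they were 13179, 15515 and 8254 and 3180.3, 1911 and 7499, a difference of −1.55 ± 0.45 (SE), adjusted p = 0.0124, and this call was lost without library 7, 8 or 10 (adjusted p up to 0.148).

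CSMD1, a transmembrane protein with CUB and sushi domains, is the longest of the tested members (ENSG00000183117; chromosome 8, 2935353 to 4994972; 2059.6 kb). It had ERCC-scaled counts of 1767, 1083 and 369 in wild-type and 0, 5.14 and 2.37 in ΔLEO1 cells in 10% serum. In 0.1% serum the values were 867, 740.3 and 773 and 1.51, 2.76 and 7.71. The ΔLEO1 libraries held no more than 3 reads each, so the gene was at the limit of detection there. The ratio of wild type to ΔLEO1 was 322-fold (95% interval 109.9 to 1564) in 10% and 244-fold (95% interval 118 to 607) in 0.1% serum, where the interval covers counting error only. Its shorter relative CSMD2 (652 kb), one of several family members named after their values were seen, differed in the opposite direction. CSMD2 had 44.9, 21.5 and 3.54 in wild-type and 135, 141 and 61.7 in ΔLEO1 cells in 10% serum, and 18.1, 6.90 and 10.0 against 191, 118 and 185 in 0.1% serum. It was called higher in both (2.36 ± 0.60 (SE), adjusted p = 0.00207, and 3.75 ± 0.60 (SE), adjusted p = 6.49e-08), although the first call was lost without library 3 (adjusted p up to 0.0798). THSD7A and THSD7B, transmembrane proteins with thrombospondin repeats, also parted. THSD7A had no read in any ΔLEO1 library in 10% serum against 32, 27 and 11 reads in wild type, and was at least 7.48-fold lower when a floor of 3 reads per library stands for the absent reads. THSD7B was called higher there (1.86 ± 0.55 (SE), adjusted p = 0.0125), a call that was lost without library 2 or 6 (adjusted p up to 0.2).

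PCDH9, PCDH7 and FAT3 of the cadherin superfamily were higher in ΔLEO1 cells at both serum levels. All of them passed the filter through ΔLEO1 libraries only. PCDH9 (ENSG00000184226; chromosome 13, 66302834 to 67230445; 928 kb), a protocadherin, had 0, 2.68 and 0 in wild-type and 2202, 1522 and 1272 in ΔLEO1 cells in 10% serum. In 0.1% serum it had 1.39, 0 and 1.11 and 459, 273 and 1136, so that no wild-type library came near any ΔLEO1 library. Wild-type cells held 1 PCDH9 read in all 3 libraries together in 10% serum, and the ratio of ΔLEO1 to wild type was 1939-fold (95% interval 347 to 76614). PCDH7, another protocadherin, had 0, 10.7 and 0 against 661, 486 and 356 in 10% serum (7.12 ± 0.88 (SE), adjusted p = 5.33e-18). In 0.1% serum its ratio was 469.9-fold (95% interval 84.0 to 18599). FAT3, an atypical cadherin, had 27.7, 8.04 and 10.6 in wild-type and 1178, 959 and 835 in ΔLEO1 cells in 10% serum (6.06 ± 0.61 (SE), adjusted p = 1.93e-17), and its ratio in 0.1% serum was 423-fold (95% interval 75.5 to 16739). CDH18, a type II cadherin, was lower in ΔLEO1 cells, with 287, 215 and 62.0 against 16.3, 20.6 and 19.0 in 10% serum (−3.29 ± 0.61 (SE), adjusted p = 4.49e-06). LSAMP, a GPI-anchored adhesion protein, had no read in ΔLEO1 libraries in 10% serum and 58, 62 and 22 reads in wild type, and was at least 15-fold lower by the same floor. CDH13, or T-cadherin, with a span of 1174 kb, did not pass the test in either serum (log2 fold changes −0.81 and −0.26). The synaptic scaffold gene MAGI2 did not pass it either (−0.62 and 0.32).

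**Figure D4:**
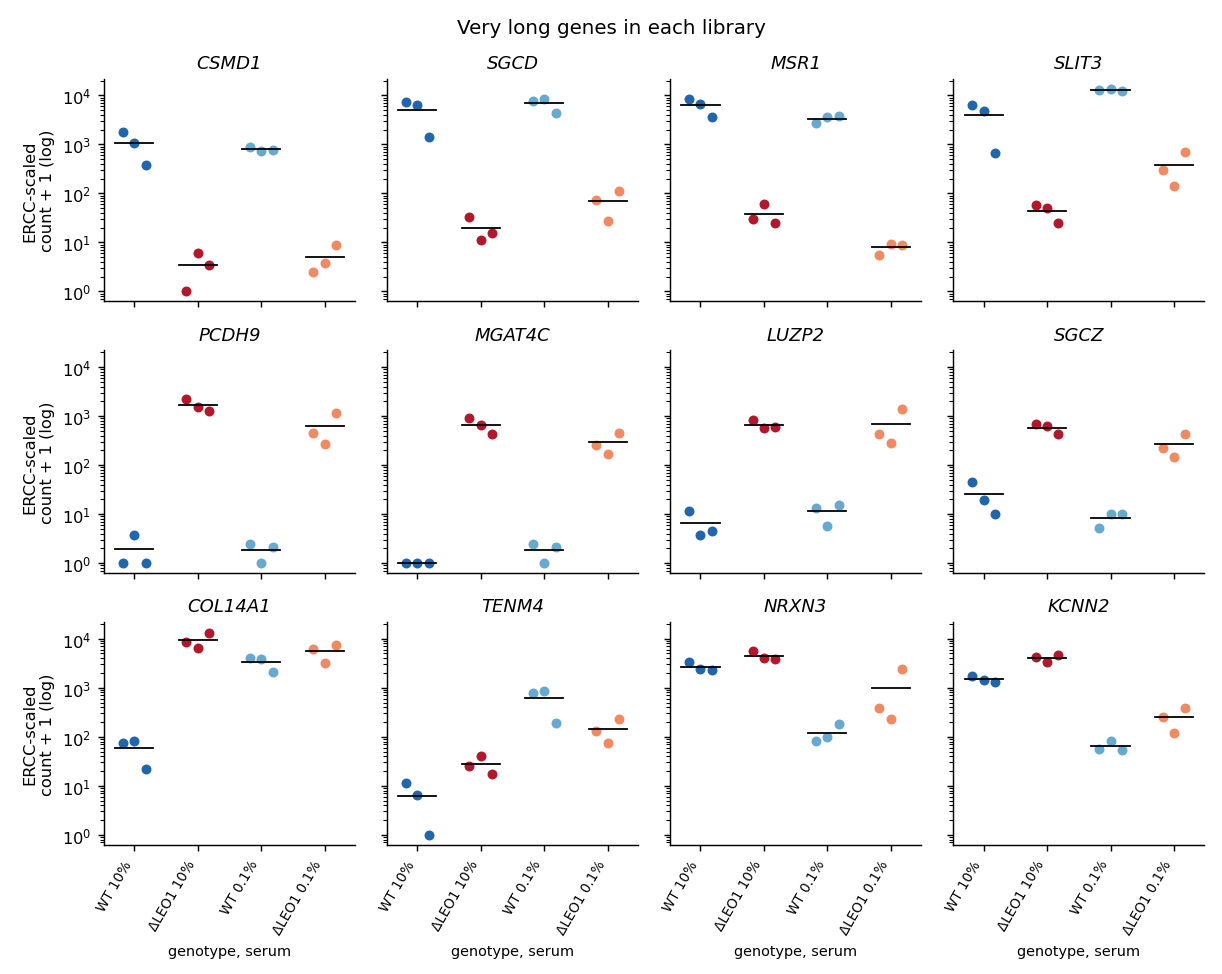
ERCC-scaled count plus 1 of 12 very long genes in each of the 12 libraries (points, logarithmic axis), by genotype and serum, with the mean of 3 libraries as a line. CSMD1, SGCD, MSR1 and SLIT3 lie low in all ΔLEO1 libraries, PCDH9, MGAT4C, LUZP2 and SGCZ lie high in all of them, and NRXN3 and KCNN2 lie lower in 0.1% than in 10% serum in both genotypes, with NRXN3 in ΔLEO1 library 12 close to the 10% libraries.

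Genes of the dystrophin complex and of linkers between membrane and cytoskeleton gave 10 tested members. In ΔLEO1 cells 3 were lower and 1 higher in 10% serum (30% and 10%), and 2 were lower and 1 higher in 0.1% serum (20% and 10%). SGCD encodes delta-sarcoglycan (ENSG00000170624; chromosome 5, 155870344 to 156767788; 897 kb). Its ERCC-scaled counts were 7439.9, 6325 and 1391 in wild-type and 32.6, 10.3 and 14.2 in ΔLEO1 cells in 10% serum, and 7768, 8524 and 4352 and 71.2, 25.8 and 113 in 0.1% serum. The groups did not overlap in either serum, and SGCD was lower in ΔLEO1 cells by −8.12 ± 0.57 (SE), adjusted p = 9.53e-32 in 10% and −6.66 ± 0.47 (SE), adjusted p = 3.62e-26 in 0.1% serum on the log2 scale. SGCZ encodes zeta-sarcoglycan (ENSG00000185053; chromosome 8, 14089864 to 15238339; 1148 kb) and went the other way. It had 44.9, 18.8 and 8.86 in wild-type and 685, 617 and 432 in ΔLEO1 cells in 10% serum (4.65 ± 0.58 (SE), adjusted p = 7.98e-12), and 4.17, 9.20 and 8.90 against 226, 148 and 419 in 0.1% serum (5.12 ± 0.63 (SE), adjusted p = 6.74e-13). The 2 sarcoglycan genes thus differed in opposite directions at both serum levels. UTRN, which encodes utrophin, the autosomal relative of dystrophin, had log2 fold changes of 0.04 and 0.34 and passed the test in neither. ANK2, an ankyrin, was lower in both.

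Among 16 tested genes of the extracellular matrix, 5 were lower and 1 higher in ΔLEO1 cells in 10% serum (31.25% and 6.25%), and 5 were lower in 0.1% serum (31.25%). ADAMTSL1, a secreted relative of the ADAMTS proteases (1004 kb), had 646, 609 and 379 in wild-type and 4.08, 5.14 and 9.49 in ΔLEO1 cells in 10% serum (−6.33 ± 0.75 (SE), adjusted p = 2.14e-16). In 0.1% serum it had 346, 356 and 314 against 1.51, 0.921 and 7.71, a ratio of 143-fold (95% interval 60.9 to 441). PAPPA2, a protease of insulin-like growth factor binding proteins, was lower in both sera as well (−3.95 ± 0.60 (SE), adjusted p = 1.29e-08, and −2.77 ± 0.60 (SE), adjusted p = 0.000198). LTBP1, which binds latent TGF-beta in the matrix, had 20390.5, 17861 and 5622 in wild-type and 5937, 4449 and 3133 in ΔLEO1 cells in 10% serum (−1.70 ± 0.45 (SE), adjusted p = 0.00405), and was also lower in 0.1% serum (−1.72 ± 0.45 (SE), adjusted p = 0.00386). The first call was lost without library 1, 2 or 6 and the second without library 8 or 10, with adjusted p up to 0.0785 and 0.0736. COL14A1 (collagen XIV; 312 kb) was the member called higher. It had 72.6, 80.4 and 21.3 in wild-type and 8649, 6604 and 13216 in ΔLEO1 cells in 10% serum (7.38 ± 0.49 (SE), adjusted p = 1.95e-30), but 4092, 3805 and 2061 against 6091, 3127 and 7303 in 0.1% serum, where the groups overlapped (0.73 ± 0.45 (SE), adjusted p = 0.552). COL21A1, another fibril-associated collagen, which is in none of the 8 lists, was lower in both sera, with 269.8, 317 and 318 in wild-type and 1.51, 0 and 7.71 in ΔLEO1 cells in 0.1% serum, a ratio of 161-fold (95% interval 62.5 to 592). RELN (reelin), a secreted glycoprotein that guides neuron positioning, was lower in 0.1% serum, with 314, 283 and 429.7 in wild-type and 21.2, 1.84 and 41.1 in ΔLEO1 cells (−4.13 ± 0.55 (SE), adjusted p = 4.52e-10). In 10% serum it had a log2 fold change of −1.17 and did not pass the test (adjusted p = 0.169).

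Receptors, kinases and other signalling genes formed the largest list. Of 57 tested, 7 were lower and 4 higher in ΔLEO1 cells in 10% serum (12.3% and 7.02%), and 10 were lower and 6 higher in 0.1% serum (17.5% and 10.5%). Of all members 13.2% and 8.57% were called in 10% serum, and 12.5% and 9.23% in 0.1% serum. The median of the list was −0.08 in 10% and −0.02 in 0.1% serum. ROR1 and ROR2, receptor tyrosine kinases that bind Wnt5a, were lower in both sera. ROR1 had 570.4, 424 and 147 in wild-type and 53.0, 28.3 and 45.1 in ΔLEO1 cells in 10% serum (−3.18 ± 0.55 (SE), adjusted p = 1.25e-06) and 990.3, 1074 and 387 against 177, 82.9 and 221 in 0.1% serum (−2.36 ± 0.50 (SE), adjusted p = 0.000237). ROR2 had 28, 30 and 14 reads in wild-type and 1, 0 and 0 in ΔLEO1 libraries in 10% serum, a ratio of 62.0-fold (95% interval 10.8 to 2480.5). WWOX, a tumour suppressor at a common fragile site (1113 kb), was lower in 10% serum (−2.13 ± 0.52 (SE), adjusted p = 0.00153) and in 0.1% serum (−1.73 ± 0.51 (SE), adjusted p = 0.0168), where the call was lost without library 7, 8 or 10 (adjusted p up to 0.106). PDE4D, a cyclic AMP phosphodiesterase (1553 kb), was higher in 10% serum, with 557, 654 and 353 in wild-type and 2231, 1787 and 1486 in ΔLEO1 cells (1.82 ± 0.48 (SE), adjusted p = 0.00455). NRG1 (neuregulin 1) was lower in 0.1% serum (−1.73 ± 0.45 (SE), adjusted p = 0.00414), and this call was lost without library 8 or 10 (adjusted p up to 0.106). CDK14, a cyclin-dependent kinase, was lower in 10% serum (−2.34 ± 0.47 (SE), adjusted p = 7.04e-05). PRKG1, a cyclic GMP-dependent kinase of 1307 kb, passed the test in neither serum (−0.94 and 0.21).

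Of 46 transcription factor and chromatin genes 4 were lower and 2 higher in ΔLEO1 cells in 10% serum (8.70% and 4.35%), and 4 and 4 in 0.1% serum (8.70% each). Of all genes 4.64% were lower and 4.2% higher in 10% serum, and 3.59% and 3.85% in 0.1% serum. ZFPM2, a GATA cofactor, was lower in both (−2.03 ± 0.50 (SE), adjusted p = 0.00195, and −1.85 ± 0.51 (SE), adjusted p = 0.00751), but the calls were lost without library 6 and without library 8 or 10 (adjusted p up to 0.0585 and 0.0845). FOXP2, a forkhead factor, was lower in 10% serum (−2.40 ± 0.50 (SE), adjusted p = 0.000105). HDAC9, a class IIa histone deacetylase, was higher in both (1.62 ± 0.48 (SE), adjusted p = 0.0132, and 1.95 ± 0.49 (SE), adjusted p = 0.00227), with the calls lost without library 2 or 4 and without library 9 (adjusted p up to 0.129 and 0.0574). RUNX1 and RBMS3, both above 1 Mb, passed the test in neither serum. Of 45 genes of membrane traffic, organelles and metabolism, 5 were lower and 1 higher in 10% serum (11.1% and 2.22%), and 6 and 1 in 0.1% serum (13.3% and 2.22%). MACROD2, a hydrolase of mono-ADP-ribose and the gene with the second longest span (2058 kb), had 349, 255 and 184 in wild-type and 53.0, 25.7 and 19.0 in ΔLEO1 cells in 10% serum (−3.05 ± 0.57 (SE), adjusted p = 1.06e-05). LRP1B, a relative of the LDL receptor (1900.3 kb), was lower in 0.1% serum, with 223, 223 and 118 against 30.3, 22.1 and 61.7 (−2.34 ± 0.54 (SE), adjusted p = 0.000708), and had −0.66 in 10% serum. TBC1D5, NAALADL2 and DPYD passed the test in neither. Actin, focal adhesion and microtubule genes gave 3 higher and 3 lower of 39 in 10% serum (7.69% each) and 1 higher in 0.1% serum (2.56%). PARD3B, NCKAP5 and NAV3 were among those that did not pass. Of 17 genes of DNA repair and the cell cycle 2 were lower in 10% serum (11.8%), and 1 was lower and 1 higher in 0.1% serum (5.88% each). RAD51B, a homologous recombination gene with a span of 910.4 kb, had −0.48 and 0.02, and SMYD3, a lysine methyltransferase of the same list, had 0.88 and 0.93. Neither passed.

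Several genes outside these lists had some of the widest differences. MSR1, a scavenger receptor known from macrophages, had 8318, 6687 and 3632 in wild-type and 28.5, 59.1 and 23.7 in ΔLEO1 cells in 10% serum (−7.36 ± 0.51 (SE), adjusted p = 5e-29). In 0.1% serum it had 2680.2, 3529 and 3742 and 4.54, 8.29 and 7.71 (−8.86 ± 0.60 (SE), adjusted p = 1.52e-34). KCNS3, a modifier subunit of voltage-gated potassium channels, had 982, 863 and 407 against 8.16, 0 and 4.75 in 10% serum, a ratio of 179.8-fold (95% interval 70.0 to 662), and was also lower in 0.1% serum (−6.49 ± 0.62 (SE), adjusted p = 2.7e-19). Both genes were thus near the limit of detection in ΔLEO1 cells and passed the filter through wild-type libraries only. MGAT4C, of the N-acetylglucosaminyltransferase family, had no read in wild-type libraries in 10% serum and 222, 252 and 184 reads in ΔLEO1 libraries, and was at least 83.9-fold higher. In 0.1% serum its ratio was 250.3-fold (95% interval 69.0 to 2073). LUZP2, a leucine zipper protein, had 10.4, 2.68 and 3.54 in wild-type and 824, 563 and 605 in ΔLEO1 cells in 10% serum, and 12.5, 4.60 and 14.5 against 427, 281 and 1362 in 0.1% serum (5.93 ± 0.59 (SE), adjusted p = 1.84e-17). TAFA2, a secreted chemokine-like protein, had 145, 67 and 49.6 against 3001, 2266 and 2347 in 10% serum (4.88 ± 0.50 (SE), adjusted p = 4.02e-15) and was higher in 0.1% serum as well (3.78 ± 0.50 (SE), adjusted p = 3.27e-10). PPP2R2B, a regulatory subunit of protein phosphatase 2A, was higher in both (2.07 ± 0.50 (SE), adjusted p = 0.00148, and 3.86 ± 0.53 (SE), adjusted p = 1.41e-09), the first call being lost without library 4 (adjusted p up to 0.0522).

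**Figure D5:**
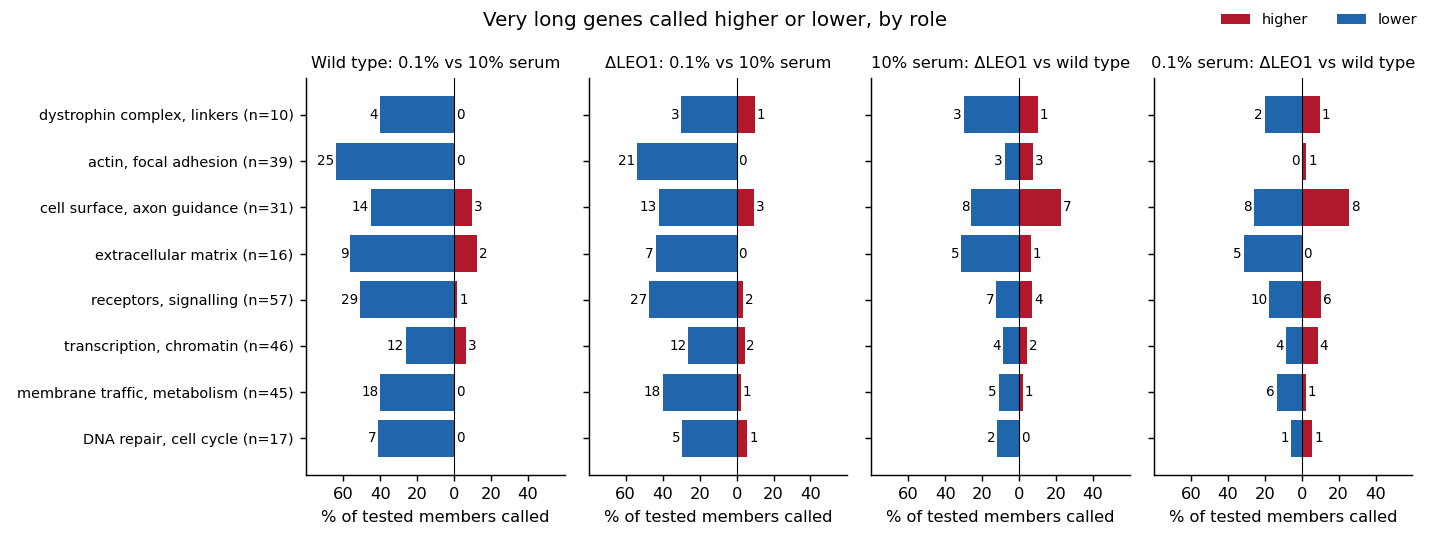
Percentage of the tested members of 8 role lists that were called higher (red, to the right) or lower (blue, to the left) in each comparison on the ERCC scale, with the number of genes at each bar. In ΔLEO1 against wild-type cells, the cell surface and axon guidance genes have calls in both directions, with 8 lower and 7 higher of 31 in 10% serum, and in 0.1% serum 25 of 39 actin and focal adhesion genes are lower than in 10% serum in wild-type cells. Of all genes 4.64% are lower and 4.2% higher in the former comparison, and 36.1% are lower in the latter.

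The members that collected the most reads gave no call between the genotypes. These were SEMA5A, TNS3, CTNNA1, DST, LAMA2 and SPOCK1. They encode a semaphorin, a tensin and alpha-catenin of adhesions, the linker dystonin, laminin alpha-2 and the proteoglycan testican-1. None of the 6 passed the test in either serum, with log2 fold changes from −0.58 (SEMA5A) to 0.36 (CTNNA1) in 10% and from −0.32 to 0.45 (the same genes) in 0.1% serum. Under TMM on the genes SEMA5A and TNS3 were called lower in 10% serum (−0.87 and −0.81).

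In wild-type cells kept in 0.1% serum, 406 of the 455 members had a negative log2 fold change. So did 12569 of all 13236 tested genes and 10524 of the 11017 shorter genes, a larger share than among members. The test called 185 members lower and 15 higher, that is 40.7% and 3.30%, where 36.1% of all genes were called lower and 0.944% higher. With TMM on the genes 101 were lower and 95 higher, beside 16.6% and 16% of all genes. Without the highest-numbered libraries 322 were lower (70.8%) and 19 higher, beside 71.8% and 1.5%. The lower calls were 73, 100, 76 and 75 when library 1, 2, 7 or 9 was left out and 278 and 289 without library 3 or 12, and 65 of the 185 held in all 12 omissions. Shares of all genes under these single omissions are not reported here. The counts cannot be told apart from a change shared by all genes. The counts did not overlap in 239 members (52.5%) on the lower and 15 on the higher side, beside 53.4% and 1.16% of all genes. SYT16, a synaptotagmin, had ERCC-scaled counts of 1328, 1282 and 850.4 in 10% and 19.5, 16.1 and 42.3 in 0.1% serum (−5.42 ± 0.53 (SE), adjusted p = 1.58e-16). NRXN3 (neurexin 3; 1698 kb), a synaptic adhesion protein, had 3357, 2419 and 2323 against 79.3, 98.9 and 179 (−4.49 ± 0.47 (SE), adjusted p = 3.19e-14). KCNN2, a calcium-activated potassium channel, had 1746, 1464 and 1338 against 55.6, 82.8 and 52.3 (−4.58 ± 0.49 (SE), adjusted p = 5.66e-14), and ANO3, of the anoctamin family, had 8266, 6655 and 5946 against 300.4, 308 and 201 (−4.69 ± 0.46 (SE), adjusted p = 1.61e-15). In these 4 genes every library in 0.1% serum lay well below every library in 10% serum. FRAS1, a protein of basement membranes, fell as well (−3.98 ± 0.49 (SE), adjusted p = 1.26e-10). The genes that rose included HPSE2 (heparanase 2), with 356, 450.5 and 301 in 10% and 4580.2, 6094 and 3856 in 0.1% serum (3.71 ± 0.47 (SE), adjusted p = 2.48e-10), and FSTL5, of the follistatin-like family, with 89.9, 59.0 and 3.54 against 1135, 1519.6 and 633 (4.49 ± 0.53 (SE), adjusted p = 1.26e-11). FSTL5 shares 11.6% of its exon bases with a gene on the opposite strand, and the strand setting of the counting is not given. DACH1, a transcriptional cofactor, TENM4, a teneurin, and COL14A1 also rose.

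By role, 25 of 39 actin, focal adhesion and microtubule genes were lower in wild-type cells (64.1%) and none was higher, and 10 of the 25 calls held in all 12 omissions of a single library. Their median was −1.25 beside −0.97 for all genes. NAV3, a microtubule-associated protein, had 10268, 8495 and 9704 in 10% and 583, 540.2 and 1096 in 0.1% serum (−3.68 ± 0.45 (SE), adjusted p = 5.17e-11), and PARD3B, a polarity protein, fell as well (−1.91 ± 0.45 (SE), adjusted p = 0.000777). NCKAP5 had −0.50 and did not pass the test. Of 16 matrix genes 9 were lower and 2 higher, among them LAMA2 (−1.70 ± 0.44 (SE), adjusted p = 0.00227) and HMCN1 (hemicentin 1, −2.89 ± 0.45 (SE), adjusted p = 2.41e-07) on the lower side. The call of LAMA2 was lost without library 9 (adjusted p = 0.0535). Signalling genes gave 29 lower and 1 higher of 57 (50.9% lower), and cell surface genes 14 lower and 3 higher of 31 (45.2% lower). Transcription factor and chromatin genes gave 12 lower and 3 higher of 46 (26.1% lower). Of all genes 36.1% were lower and 0.944% higher. The lower calls that held in all 12 omissions were 5 of 9 for matrix and 7 of 29 for signalling genes. They were 9 of 14 for cell surface genes and 2 of 12 for transcription factor and chromatin genes. Scaled by TMM on the genes, 17 of the 39 actin and adhesion genes were lower and 5 higher, and 5 of the 46 transcription factor and chromatin genes were lower and 15 higher. On that scale 16.6% of all genes were lower and 16% higher.

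In ΔLEO1 cells 173 members were lower and 16 higher in 0.1% than in 10% serum, that is 38.0% and 3.52%, where 47.2% of all genes were lower and 0.975% higher. The lower calls were 54, 104, 36 and 52 when library 4, 5, 10 or 11 was left out and 365 without library 12, and 36 of the 173 held in all 12 omissions. Here too, shares of all genes under single omissions are not reported, and a change shared by all genes cannot be told apart. With TMM on the genes 66 were lower (14.5%) and 128 higher (28.1%), beside 12.9% and 16.5%. Without the highest-numbered libraries 394 were lower (86.6%) and 11 higher, beside 92.5% and 0.778%. The counts did not overlap in 150 members (33%) on the lower and 12 on the higher side, beside 50.9% and 0.846% of all genes. The 2 serum comparisons share no library. Of the 185 members lower in wild-type cells 125 were also lower in ΔLEO1 cells (67.6%, and 72.3% of the 173), while of all genes lower in wild-type cells 78.5% were, or 28.3% of all tested genes. KCNN2 fell again, with 4245, 3407 and 4726 in 10% and 249.9, 116 and 388 in 0.1% serum (−4.05 ± 0.47 (SE), adjusted p = 1.53e-11). HMCN1 had 7157, 5022 and 16068 against 310.5, 162 and 1277 (−4.02 ± 0.45 (SE), adjusted p = 3.06e-12), and SYT16, ANO3 and HDAC9 fell as well (−2.68, −2.65 and −2.64). In SYT16 library 12 lay far above libraries 10 and 11, with 92.4, 46.0 and 704. Higher in both genotypes were FSTL5, LDB2, MYO3B, PLCL1, SLIT3, TENM4 and ZNF423, which is 46.7% of the 15 members higher in wild-type cells. Of all genes higher there 48.8% were higher in both, or 0.461% of all tested genes. MYO3B, PLCL1 and ZNF423 are named after their values were seen. PLCL1 lost its call in wild-type cells without library 1, 2, 3, 7 or 9 and in ΔLEO1 cells without library 2, 4, 5, 7, 8, 10 or 12 (adjusted p up to 0.164 and 0.445), and MYO3B in ΔLEO1 cells without library 4 (adjusted p = 0.0506). SLIT3 rose in ΔLEO1 cells from 57.1, 48.9 and 23.7 to 298, 143 and 707 (3.16 ± 0.51 (SE), adjusted p = 2.98e-07) and in wild-type cells by 1.70 ± 0.45 (SE), adjusted p = 0.00321, so that it kept its lower level in ΔLEO1 cells at both serum levels. ROBO2 rose in ΔLEO1 cells (1.69 ± 0.45 (SE), adjusted p = 0.00441) and had 0.57 in wild-type cells, where it did not pass the test. LDB2, a LIM domain binding protein, rose in both (1.76 ± 0.47 (SE), adjusted p = 0.00428, and 1.21 ± 0.46 (SE), adjusted p = 0.0358 in wild-type cells, where the call was lost without library 2, 3, 5, 7, 8 or 9, with adjusted p up to 0.144). FOXP2 was called higher in ΔLEO1 cells (1.33 ± 0.50 (SE), adjusted p = 0.0281), but had 0.07 without the highest-numbered libraries, and the call was lost without library 4, 6, 10 or 12 (adjusted p up to 0.264).

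The test of the interaction asks whether serum withdrawal changed a gene differently in ΔLEO1 and wild-type cells. It called 2 members higher and 5 lower, or 0.44% and 1.1%, beside 0.136% and 0.0831% of all genes. With TMM on the genes it called 37 higher and 13 lower (3.06% and 1.02% of all genes), and without the highest-numbered libraries 2 and 13 (0.166% and 0.831%). The quasi-likelihood test called 2 and 3 (0.113% and 0.0604%). DESeq2 with ERCC size factors called 0 and 2 (0.0604% and 0.0756%), with 14 and 13 members at an unadjusted p under 0.05. The share of all genes at that unadjusted p is not reported here, so these 14 and 13 carry no weight of their own. Over all members the median of the interaction was 0.13, and over all genes −0.07. Without the highest-numbered libraries these medians were −0.58 and −0.67, so the sign of the members' median turned. The shift against shorter genes of like expression was 0.20 with all libraries and 0.084 without those. HPSE2 rose in wild-type cells as given above but had 347, 306 and 496 in 10% and 575, 344 and 812 in 0.1% serum in ΔLEO1 cells, an interaction of −3.13 ± 0.67 (SE), adjusted p = 0.00429 that was lost without library 6 or 8 (adjusted p up to 0.0566). COL14A1 and TENM4 also had negative interactions (−6.65 ± 0.66 (SE), adjusted p = 1.94e-16, and −4.61 ± 0.99 (SE), adjusted p = 0.00109). In FRAS1 the interaction was positive (3.68 ± 0.70 (SE), adjusted p = 0.000432). Its ERCC-scaled counts in ΔLEO1 cells were 534, 460.3 and 242 in 10% and 117, 78.3 and 819.8 in 0.1% serum, with library 12 far above the others, and the call was lost without library 12 (adjusted p = 0.133). CLSTN2 (calsyntenin 2) fell in wild-type cells, from 764, 694 and 103 to 48.7, 46.0 and 27.8, and in ΔLEO1 cells it had 20.4, 10.3 and 4.75 and 21.2, 8.29 and 103, an interaction of 5.56 ± 0.87 (SE), adjusted p = 1.3e-06. COL21A1 and RELN had negative interactions with adjusted p of 0.0349 and 0.0453, which were lost in 9 and 11 of the 12 omissions of a single library.

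Genes of transcription elongation are not among the members. Of 59 listed, 55 were tested, and on the ERCC scale LEO1 was the only one called between the genotypes in either serum. With TMM on the genes 14 of the 55 were higher and 3 of the 55 lower in ΔLEO1 cells in 10% serum, beside 17.7% and 21.8% of all genes. The share higher thus lay above that of all genes and the share lower below it. In 0.1% serum 9 of the 55 were higher, a share close to the 15.4% of all genes, and 4 of the 55 were lower, below the 17.6% of all genes.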

How the data were processed

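RNA-seq was made from 12 libraries in 4 groups of 3. The deposited gene table holds raw read counts per gene, which the authors obtained with STAR and featureCounts 1.5.1 from 58-base paired-end reads of an Illumina stranded mRNA preparation. The methods name STAR 2.7.9a and the processing notes 2.7.10a. Which annotation release and which strand option featureCounts used is not given in the sources used here. A second deposited table holds counts of 92 ERCC RNAs. Gene spans, exons and overlaps were taken from GENCODE 29 on GRCh38 by gene ID (58453 of 60671 matched), and promoter windows from RefSeq on GRCh38.p14. Library sizes were ERCC totals with TMM factors, genes needed more than 1 CPM in 3 libraries, and the 4 group means were compared with likelihood ratio tests in edgeR 4.0.16 under R 4.3.3, with Benjamini-Hochberg adjustment over 13236 genes and a threshold of 0.05. Log2 values per library carry a prior count of 2, while fold changes carry the default prior count of edgeR. Ratios of low counts carry exact 95% intervals of counting error. Shifts are differences of medians, with shorter genes weighted to the members' deciles of the mean log2 ERCC-scaled value. Alternatives were TMM and DESeq2 1.42.0 size factors on the genes, plain ERCC totals, the quasi-likelihood test, DESeq2, other filters, other spans and bins, and omission of libraries. The likelihood ratio test was checked on simulated data for serum in wild-type cells only, with an outcome that is not reported here. Tables were read in Python 3.11.15 with pandas 2.3.3.

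Members, role lists and tests were chosen with earlier results of these data known. Named genes are, for each comparison, the 5 called members with the largest change in each direction and at least 5 CPM in a group, the 6 longest, the 6 with the highest mean CPM, up to 3 further long members of each role list, and LEO1. Some genes that this rule names are not reported here. Columns of per-sample values left unused number 0. Reads shared with overlapping or opposite-strand genes cannot be assigned, and 22 members share 10% or more of their exon bases with a gene on the other strand.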

Additional observations from a re-analysis of the deposited data

Results flagged for a closer look

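In 7 very long genes the change with serum differed between ΔLEO1 and wild-type cells by the test of the interaction, given here as the log2 fold change in ΔLEO1 cells minus that in wild-type cells. It was lowest in COL14A1 at −6.65, where ERCC-scaled counts rose with serum withdrawal in wild-type cells and were already high in ΔLEO1 cells in 10% serum. In TENM4 it was −4.61, and the gene rose in both genotypes. COL21A1 had −4.19, HPSE2 −3.13 and RELN −2.96. Positive values were found in FRAS1 (3.68) and CLSTN2 (5.56), both of which fell in wild-type cells. The calls of COL21A1, HPSE2, RELN and FRAS1 were each lost on leaving out at least 1 library. DESeq2 with ERCC size factors called 0 members with a positive interaction, so that CLSTN2 and FRAS1 were not called there.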

How the results depend on the processing

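The direction of the shift of members against shorter genes was the same under every alternative that kept the limit of 300 kb, in the 4 comparisons and in the interaction, except that means in place of medians gave 0.031 against −0.017 for serum in wild-type cells. Under TMM on the genes the calls (higher and lower) were 95 and 101 for serum in wild-type cells, 128 and 66 for serum in ΔLEO1 cells, 72 and 196 for ΔLEO1 in 10% serum, 82 and 148 in 0.1% serum, and 37 and 13 for the interaction. With DESeq2 size factors on the genes they were 96 and 101, 127 and 66, 74 and 194, 83 and 148, and 35 and 13. These scalings set the median change of all genes near 0 by construction. Without a filter, when 702 very long genes were tested in place of 455, 61 were called higher in ΔLEO1 cells in 10% serum, and 3 had a lower interaction. Shares of all genes called without a filter or with DESeq2 size factors on the genes are not reported here. Without genes over 1 CPM in 1 genotype only, an alternative chosen after seeing the data, 24 and 34 of 406 members were called higher and lower in ΔLEO1 cells in 10% serum and 27 and 28 in 0.1% serum. The quasi-likelihood test gave 3 lower interactions, and DESeq2 with ERCC size factors gave 0 higher and 2 lower, with 14 and 13 members at an unadjusted p under 0.05. The latter have no share of all genes beside them. Without the highest-numbered library of each group, the lower calls were 322 and 394 for serum in wild-type and ΔLEO1 cells, 162 for ΔLEO1 in 0.1% serum and 13 for the interaction, and the shifts were 0.053 for serum in ΔLEO1 cells, −0.28 for ΔLEO1 in 0.1% serum and 0.084 for the interaction. The cause was not tested.

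With a limit of 500 kb the shift was 0.065 and 0.24 for serum in wild-type and ΔLEO1 cells, and −0.51 and −0.23 for ΔLEO1 in 10% and 0.1% serum. With 200 kb it was −0.24 for ΔLEO1 in 10% serum. When single libraries were left out, higher and lower calls ranged from 11 to 20 and 73 to 289 for serum in wild-type cells, from 11 to 17 and 36 to 365 for serum in ΔLEO1 cells, from 30 to 54 and 43 to 79 for ΔLEO1 in 10% serum, from 30 to 85 and 38 to 100 in 0.1% serum, and from 1 to 7 and 2 to 10 for the interaction. Lower calls for serum in wild-type cells were 73, 100, 76 and 75 without libraries 1, 2, 7 and 9, and 278 and 289 without libraries 3 and 12. For serum in ΔLEO1 cells they were 54, 104, 36 and 52 without libraries 4, 5, 10 and 11, and 365 without library 12. In 0.1% serum the higher calls were 85 without library 11 and the lower calls 100 without library 12. Shares of all genes under these single omissions are not reported here, so these ranges are not particular to very long genes. The shifts ranged from −0.06 to −0.00, from 0.037 to 0.18, from −0.35 to −0.31 and from −0.24 to −0.029 over the 4 comparisons, and from 0.047 to 0.24 for the interaction, with 0.037, −0.24 and 0.047 without library 12 for serum in ΔLEO1 cells, ΔLEO1 in 0.1% serum and the interaction.

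Among the repeats over 45 values of named genes, 860 kept their direction and their side of the threshold, 39 lost their call and 0 turned. The lost calls concerned FOXP2 with serum in ΔLEO1 cells and the interactions of FRAS1, TENM4, COL21A1, HPSE2 and RELN. The interaction of CLSTN2 is not among these 45 values. No paired analysis was possible because the libraries are numbered 1 to 12 without a repeat, so that no number recurs in a second group. The number of libraries (3 a group), 1 clone and an ERCC scale that moves with the amount of spiked RNA limit these comparisons. Members near or under the floor of 3 reads in a group have ratios known only within wide counting intervals.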
